A study of Bos taurus with 6 samples.

Results

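The RNA of the enzymes that attach ubiquitin to proteins and of those that remove it was examined in 8-cell bovine embryos. The genes were taken by symbol from the protein-coding genes of the files: symbols starting with UBE2, UCHL or OTU, those starting with USP and a digit, and UBTD1 and UBTD2. This gave 96 of the 16847 protein-coding genes and of 18862 genes in all, made up of 33 UBE2, 47 USP, 11 OTU, 3 UCHL and 2 UBTD genes. A gene whose symbol is not of this form was not taken, whatever its function, and 1 gene taken by symbol, USP6NL, encodes a GTPase-activating protein of RAB proteins and no deubiquitinase. In the deposited annotation 89 of the 96 genes carried usable GO terms. Of the genes, 25 of the UBE2 family were annotated to ubiquitin conjugation, and 44 USP, 10 OTU and 2 UCHL genes to cysteine-type deubiquitinase activity. They lay on 30 chromosomes, with 9 on chromosome 3, the most on any, and 6 on the X chromosome.

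Ubiquitin is a small protein that is joined to lysines of other proteins in 3 enzymatic steps. An E1 enzyme activates it, an E2 or conjugating enzyme carries it, and an E3 ligase chooses the substrate, and the E2 often decides which kind of chain is built. Deubiquitinases cut ubiquitin off again, and fall into families such as the ubiquitin-specific proteases (USP), the ovarian tumour proteases (OTU) and the ubiquitin C-terminal hydrolases (UCHL). In the early embryo the pathway is known for clearing maternal proteins around genome activation, which in cattle falls at about the stage sampled here, and for driving the cell cycle through the anaphase-promoting complex. UBTD1 and UBTD2 are neither: they carry a ubiquitin-like domain, and human UBTD1 binds E2 enzymes of the UBE2D group.

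The scRNA-seq data comprised 6 libraries, 3 of the control group and 3 of the GSKA group, whose embryos were cultured with 200 pmol/L GSKA, an inhibitor of lactate dehydrogenase A that the study used to lower histone lactylation. Embryos of both groups were made by in vitro fertilization of slaughterhouse oocytes stripped of cumulus cells afterwards, and the culture medium held the same amount of the solvent DMSO in both. GSKA was present from the start of embryo culture after fertilization. The labels give the tissue of every sample as female, with no breed, genotype or batch. Sexing of the embryos is not described in what was read here. A library pools the RNA of its embryo material, not of single cells. The study calls its replicates biological. How many embryos a library holds, and whether replicates were separate cultures, is not given in what was read here. The p-values set the difference between groups against the spread of libraries within groups, and part of that spread may be technical.

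Levels are FPKM, fragments per kilobase of transcript divided by the mapped fragments of the library, as the authors deposited them, so that genes of different length can be compared. No counts were recovered from them, and the depth of each library is unknown. FPKM summed to between 497035 and 581839 per library. Control replicate 1 carried 13.2% of its FPKM on mitochondrially encoded genes and the other libraries 5.31% to 7.26%, and control replicate 2 held the lowest value of the 6 libraries for 34 of the 85 genes tested here (40.0%, against 28.9% of all genes tested). Oocyte and embryo markers were plentiful, with a summed FPKM of 14937 to 23736 in control embryos and 26164 to 28760 in the GSKA group, most of it from BTG4 (13 of 14 markers listed, none at 0 in every library). The 12 of 15 listed cumulus and granulosa markers that are in the files summed to 39.7 to 55.5 and 75.2 to 83.2 FPKM, led by STAR. TNFAIP6 was at 4.31 to 11.3 FPKM in control embryos and 15.2 to 16.6 in the GSKA group, and HAS2 at 3.84 to 8.10 and 6.64 to 8.94. DCN was at 0, 0 and 1.18 against 5.49, 4.23 and 6.26 FPKM. AMH, COL1A2, COL3A1, CYP19A1 and INHBA were under 1 in every library. Of 11 sperm markers listed, 8 are in the files and summed to 0.578 to 1.62 and 8.45 to 9.44, and 5 of 9 blood markers to 7.52 to 12.8 and 3.30 to 8.27. Protamine PRM1 was at 0 in 5 of the 6 libraries. TNP2, the sperm marker of highest mean, was at 0, 0.872 and 0 FPKM in control embryos. In the GSKA group TNP2 was at 1.31, 5.13 and 3.14 FPKM. The first 3 sums lay higher in every GSKA library than in every control, as do several genes below, and their part in those differences was not tested.

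UBTD2 was the one gene of the 85 tested that changed by the test, and it rose, although the call depended on the settings. Its FPKM was 6.94, 10.97 and 8.43 in control replicates 1, 2 and 3, and 31.2, 34.5 and 29.4 in GSKA replicates 1, 2 and 3. All 3 GSKA libraries thus lay well above all 3 controls, with little spread inside either group. The mean was 3.61 times higher in the GSKA group (31.7 ± 2.57 against 8.78 ± 2.03, SD, n = 3 each). Tested by limma on log2(FPKM + 1) across the 10654 genes that reached an FPKM of 1 in 3 or more libraries, the log2 fold change was 1.76 (SE 0.288, Benjamini-Hochberg adjusted p = 0.0256). Fold changes on this scale understate those of genes at low FPKM, and in RNA of whole embryos fewer cells of a type and less RNA per cell cannot be told apart. UBTD2 encodes a small cytoplasmic protein with a ubiquitin-like domain at its C-terminal end and lies at positions 3997984 to 4064029 of chromosome 20 in the files, and the sources used here do not give their genome build.

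The call on UBTD2 was lost without any 1 library of the GSKA group, and under other settings. Its adjusted p was 0.166, 0.177 and 0.126 without GSKA replicate 1, 2 and 3, and 0.0522 without control replicate 3, while the log2 fold change stayed between 1.62 and 1.91. With all libraries the adjusted p was 0.0544 with median scaling, 0.0798 with no intensity trend and 0.234 with no filter on FPKM. It was 0.0387 without control replicate 1, the library rich in mitochondrial RNA, and 0.0452 without control replicate 2. An exact permutation test of 3 libraries against 3 cannot give a p under 0.1, and gave 0.1.

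Over all genes tested, an adjusted p under 0.05 was reached by 24 genes that rose (0.225%) and 14 that fell (0.131%), 38 in all (0.357%). With libraries scaled to equal medians these were 7 and 14, and with quantile normalization 14 and 15. Of the 96 genes 85 were tested, and UBTD2 was the only one called, with none lower. At an unadjusted p under 0.05, 15 were higher (17.6%, against 9.40% of all genes tested) and 2 lower (2.35%, against 4.03%). With libraries scaled to equal medians, or with quantile normalization, 9 were higher. One of the 15, OTULINL, passed the filter on low values only through the group in which it was higher. In 15 genes, OTULINL again among them, every GSKA library lay above every control (17.6%, background 12.9%). In 2 every one lay below (2.35%, background 6.45%). The log2 fold change was above 0 for 47 genes and below 0 for 38, a share of 55.3% beside 57.2% of all genes, and its median was 0.10 beside 0.09. With all 6 libraries the middle of the set was therefore where the middle of all genes was. Single controls moved the median of the set, to 0.005 without control replicate 2 and to 0.286 without control replicate 1. The median of all genes tested moved less, between 0.04 and 0.14 when 1 library was left out. The number of the set higher at an unadjusted p under 0.05 then lay between 6 and 16, the lowest without GSKA replicate 3.

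No family of 3 or more genes had a median far from 0. Of the UBTD pair, UBTD2 had a log2 fold change of 1.76 and UBTD1 of -0.06, and their median lies midway. The median log2 fold change was 0.22 in the 32 UBE2 genes tested, 0.17 in 39 USP genes, -0.10 in 9 OTU genes, -0.07 in 3 UCHL genes and 0.85 in the 2 UBTD genes. In the UBE2 family 3 genes were higher at an unadjusted p under 0.05 (9.38%, beside 9.40% of all genes tested) and none lower. In the USP family 8 were higher (20.5%) and 1 lower (2.56%, against 4.03% of all genes tested). In the OTU family 2 of 9 were higher (22.2%) and 1 lower (11.1%). OTULINL, 1 of these 2, passed the filter on low values only through the GSKA group. The difference between families was not tested. With 1 library left out the UBE2 median lay between 0.06 (without control replicate 2) and 0.29 (without control replicate 1), and the USP median between -0.06 and 0.33, with the same libraries left out. The OTU median lay between -0.32 (without GSKA replicate 3) and 0.02 (without GSKA replicate 2), and was also just above 0 without control replicate 1 or 3.

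**Figure D1:**
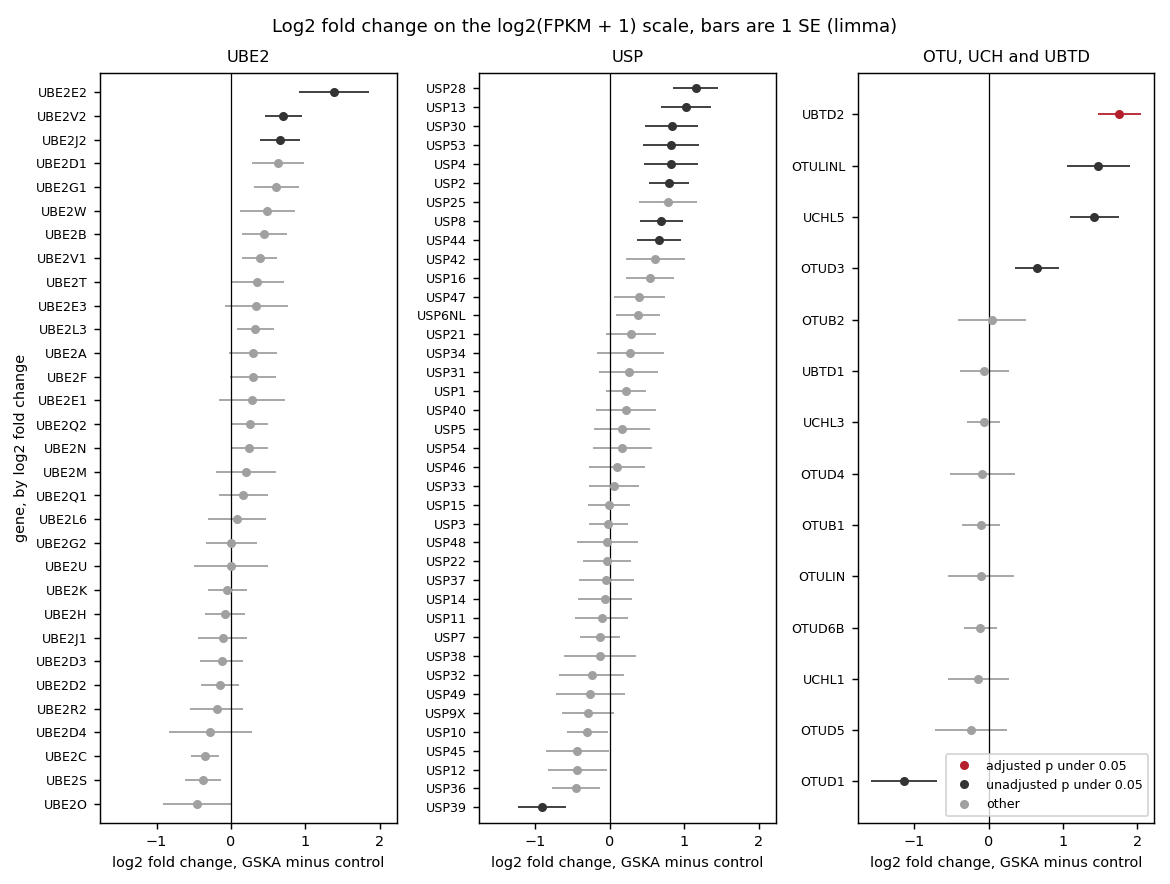
Log2 fold change (GSKA minus control, x axis) of genes tested, ordered by value within UBE2, USP and the OTU, UCHL and UBTD genes, with bars of 1 standard error from limma on log2(FPKM + 1). UBTD2, the red point at 1.76, is the only gene with an adjusted p under 0.05. The 16 other genes at an unadjusted p under 0.05 are black, of which USP39 and OTUD1 lie left of 0. OTULINL, 1 of the 16, passed the filter on low values only through the GSKA group.

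The E2 enzymes held most of the RNA of the set. Their summed FPKM was 3710 ± 971 in control embryos and 3486 ± 196 in the GSKA group (SD, n = 3 each), beside 681 ± 130 and 826 ± 50.2 for the USP genes, 624 ± 107 and 578 ± 34.2 for the OTU genes, 95.3 ± 10.8 and 105 ± 7.70 for the UCHL genes, and 18.9 ± 3.15 and 41.3 ± 4.34 for the UBTD genes. The groups overlapped in the UBE2, OTU and UCHL sums. They lay apart in the USP sum, with 531 to 758 in control embryos and 773 to 873 in the GSKA group, and in the UBTD sum. Both gaps depended on 1 gene. Without USP2 the USP sums overlapped, at 449 to 711 in control embryos and 643 to 737 in the GSKA group. Without UBTD2 the UBTD sum was 10.1 ± 2.71 and 9.61 ± 1.92. A mean over the 6 libraries of at least 100 FPKM was reached by 9 of the 96 genes (9.38%, against 5.36% of protein-coding genes), 8 of them E2 enzymes, and a mean under 1 FPKM was seen in 11 (11.5%, against 39.8%). Of the 96 genes 93 were above 0 in every library and none was at 0 in all.

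**Figure D2:**
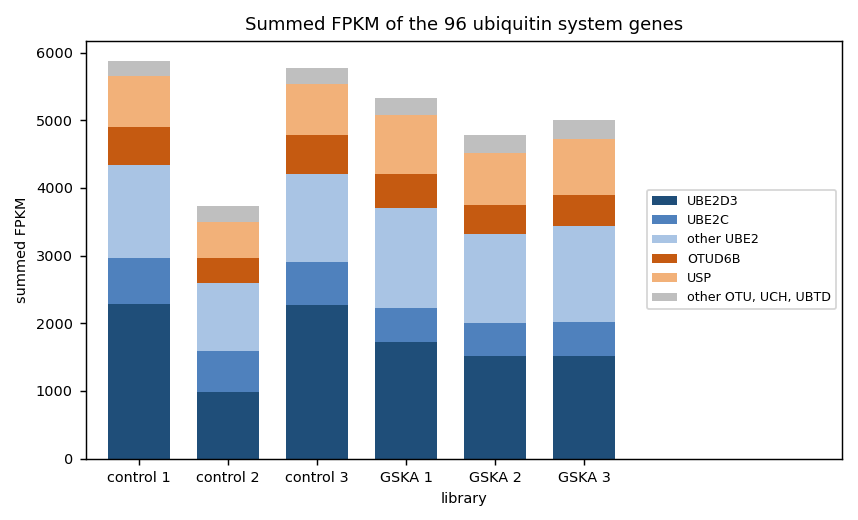
Summed FPKM of the 96 genes in each of the 6 libraries (bars from 0, 1 bar per library), split into UBE2D3, UBE2C, the other UBE2 genes, OTUD6B, the USP genes and the rest. The sum is lowest in control replicate 2, at 3733, against 4782 to 5880 in the other libraries, and UBE2D3 makes up much of that gap.

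UBE2D3 and UBE2C stood above the rest of the E2 genes. UBE2D3, a widely used E2 that places first ubiquitins for many ligases, had the highest level of the set at 2279, 990 and 2266 FPKM in control embryos and 1715, 1511 and 1514 in the GSKA group. Control replicate 2 was far below the other controls, so that the control range spanned the GSKA group. UBE2D3 alone made up 38.2% to 53.9% of the UBE2 sum in control embryos and 44.0% to 46.4% in the GSKA group. Without it the sum was 1866 ± 237 and 1906 ± 92.6. UBE2C, which starts chains for the anaphase-promoting complex, followed at 681, 600 and 633 and at 509, 491 and 503 FPKM. Every GSKA library lay below every control, by a small step (log2 fold change -0.35, SE 0.187, limma adjusted p = 0.456). UBE2S, which extends those chains, was at 133, 181 and 103 FPKM in control embryos and 106, 106 and 101 in the GSKA group, with overlap (log2 fold change -0.38, adjusted p = 0.542). The ratio of UBE2C to UBE2S was 3.31 to 6.13 in control embryos and 4.64 to 5.00 in the GSKA group, a pair chosen after its values were seen.

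Below these, neighbours in the order of levels could not be told apart by their controls. Within the UBE2 family the control ranges of 30 of 32 neighbouring pairs overlapped, the exceptions being UBE2D3 over UBE2C and UBE2C over UBE2S, and within the USP family all 46 pairs did. In the OTU family 7 of 10 pairs overlapped, since OTUD6B, OTUB1, OTUD3 and OTUD1 stepped down without overlap. UCHL3, UCHL5 and UCHL1 were likewise apart from one another.

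**Figure D3:**
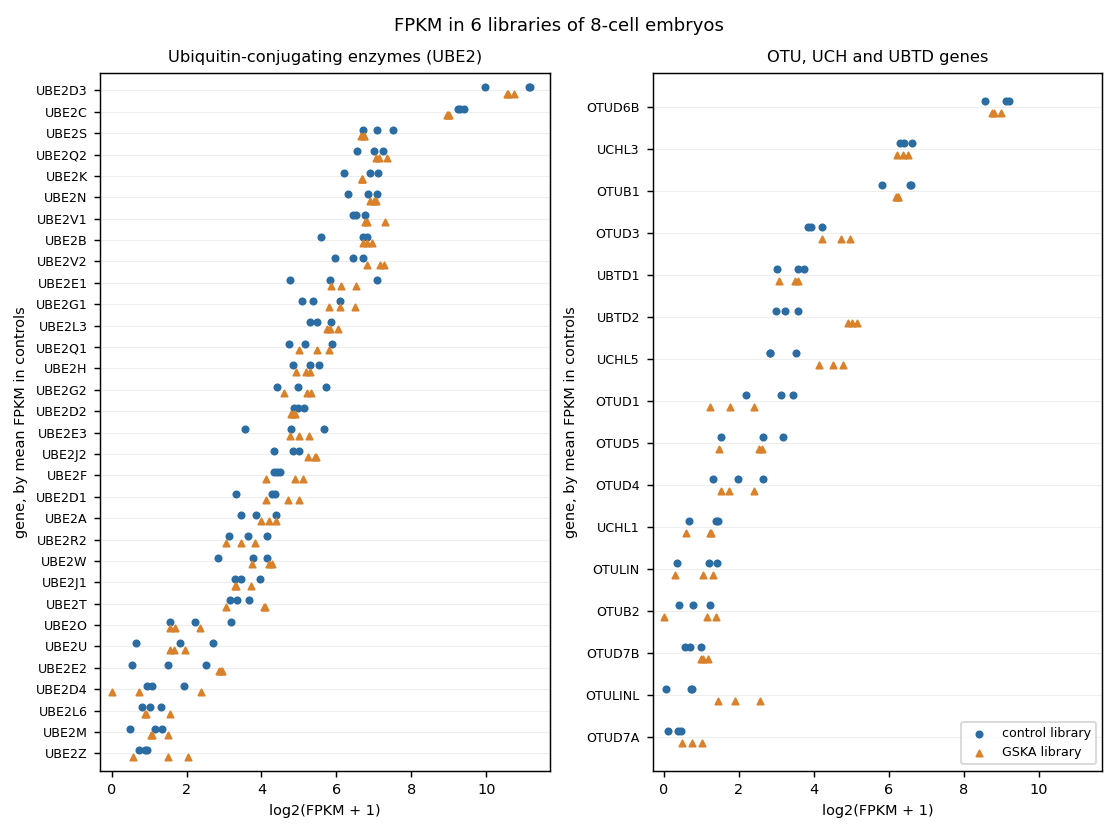
Level of UBE2 genes (left) and each OTU, UCHL and UBTD gene (right) as log2(FPKM + 1) in the 3 control libraries (circles) and the 3 GSKA libraries (triangles), ordered by mean FPKM in the controls. UBE2D3, UBE2C and OTUD6B stand above the rest. All triangles lie right of the circles in UBE2E2, UBE2J2, UBE2V1, UBE2V2, UBTD2, UCHL5, OTULINL, OTUD7A and OTUD7B. They lie left of them in UBE2C.

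The remaining E2 genes at the head of the order build particular chains. UBE2N and its partners UBE2V1 and UBE2V2, which lack the catalytic cysteine of other E2 proteins, make chains through lysine 63, used in DNA damage tolerance and signalling. UBE2V2 was at 86.4, 61.5 and 104 FPKM in control embryos and 143, 111 and 153 in the GSKA group. The GSKA libraries all lay above the controls (log2 fold change 0.70, SE 0.254, limma unadjusted p = 0.0159, adjusted p = 0.249). UBE2V1 was also apart, at 85.7, 90.8 and 107 against 157, 107 and 111 FPKM, but 2 of its GSKA values sat just above the highest control (log2 fold change 0.38, adjusted p = 0.518). UBE2N, the active partner, overlapped at 113, 78.0 and 135 against 133, 118 and 127 FPKM. All 6 of the E2 genes listed for DNA damage tolerance and repair, which include UBE2A, UBE2B and UBE2T beside these, had a log2 fold change above 0, from 0.25 to 0.70 with a median of 0.37. Of all UBE2 genes tested 62.5% had a log2 fold change above 0, and of all genes tested 57.2%. None of the 6 was called, and 1 of them reached an unadjusted p under 0.05. UBE2V1 and UBE2V2 are similar in sequence, as are UBE2A and UBE2B, the UBE2D genes and the UBE2E genes, and reads that fit more than 1 copy may have been split between them in the deposited values.

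Of the E2 genes that place first ubiquitins, UBE2E2 had the largest log2 fold change, 1.39 (SE 0.470, unadjusted p = 0.0114, limma adjusted p = 0.229). It was at 0.450, 1.86 and 4.75 FPKM in control embryos and 6.61, 6.27 and 6.68 in the GSKA group. The GSKA values were nearly equal and the controls spread widely, so the size of the difference depends on the control chosen. Its relatives UBE2E1 and UBE2E3 were higher in level and overlapped between the groups, at 26.2 to 133 and 10.9 to 49.7 FPKM in the controls. UBE2D1 was at 18.4, 9.04 and 19.4 against 16.4, 25.3 and 31.3 FPKM, also with overlap. The ratio of UBE2D3 to UBE2D1 was 109 to 124 in control embryos and 48.4 to 104 in the GSKA group, a pair picked after its values were seen. Over the 8 UBE2D, UBE2E and UBE2W genes the median log2 fold change was 0.31.

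Among the E2 genes of chain elongation most values lay slightly lower in the GSKA group. Of the 6 listed, UBE2C, UBE2S, UBE2K, UBE2R2, UBE2G1 and UBE2G2, 2 had a log2 fold change above 0 and 4 below, with a median of -0.12. None passed even at an unadjusted p under 0.05. UBE2K, which builds chains through lysine 48, was at 136, 72.7 and 118 FPKM in control embryos and 102, 102 and 101 in the GSKA group. UBE2G1, which works with cullin ligases, had the smallest p of the list, at 40.7, 32.8 and 66.9 against 88.8, 54.3 and 67.2 FPKM (log2 fold change 0.61, limma adjusted p = 0.408).

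The membrane E2 UBE2J2, which marks misfolded proteins at the endoplasmic reticulum, was at 19.0, 27.7 and 30.8 FPKM in control embryos and 42.3, 42.5 and 36.9 in the GSKA group. The groups were apart (log2 fold change 0.66, SE 0.270, unadjusted p = 0.0304, limma adjusted p = 0.308). Its relative UBE2J1 was at 8.77 to 14.5 and 8.86 to 12.2 FPKM, and the ratio of UBE2J2 to UBE2J1 was 1.91 to 3.16 in control embryos and 3.48 to 4.68 in the GSKA group. Among the 4 E2 genes listed for other modifiers, UBE2F, one of the pair for NEDD8, had the smallest p, at 20.3, 19.3 and 21.4 against 33.2, 28.9 and 16.4 FPKM (log2 fold change 0.29, adjusted p = 0.721). GSKA replicates 1 and 2 lay above the controls and GSKA replicate 3 below. UBE2L3, which serves HECT and RBR ligases, overlapped at 38.6 to 56.6 and 52.5 to 65.1 FPKM. UBE2Q2, with the highest mean over the 6 libraries after UBE2C in the E2 family and the smallest p of the other E2 genes, was at 128, 91.7 and 149 against 140, 161 and 131 FPKM (log2 fold change 0.25, adjusted p = 0.688).

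UCHL5 and USP14 both act at the proteasome and had unlike values. UCHL5, which trims ubiquitin chains on the regulatory particle and also belongs to the INO80 chromatin remodelling complex, was at 6.08, 6.17 and 10.4 FPKM in control embryos and 26.3, 16.8 and 21.9 in the GSKA group. All GSKA libraries lay above all controls, and the log2 fold change was 1.42 (SE 0.326, unadjusted p = 0.000797, limma adjusted p = 0.0922), the nearest to the threshold after UBTD2. Its adjusted p over 20 alternatives lay between 0.0594 and 0.392, so it was not called in any. USP14 was at 9.86, 11.5 and 13.3 against 15.1, 14.2 and 5.95 FPKM, with GSKA replicate 3 below every control. The ratio of UCHL5 to USP14, a pair chosen with the values known, was 0.535 to 0.782 in control embryos and 1.18 to 3.68 in the GSKA group. UCHL5 lies at positions 12190421 to 12232355 of chromosome 16 and shares 539 bases with RO60 on the opposite strand, whose FPKM was 6.61, 8.48 and 14.2 in control embryos and 2.99, 8.11 and 4.45 in the GSKA group (log2 fold change -0.82, adjusted p = 0.408). The counting is not stated to use strand, so reads from the shared bases cannot be assigned to 1 of the pair.

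The other UCHL genes showed no such gap. UCHL3, which processes precursors of ubiquitin and NEDD8, was at 97.6, 77.2 and 84.5 FPKM in control embryos and 73.4, 83.0 and 90.7 in the GSKA group. It made up 87.5% to 92.6% of the UCHL sum in control embryos and 73.2% to 82.1% in the GSKA group. UCHL1, abundant in neurons and oocytes of other species, was near the lower limit at 1.72, 0.599 and 1.61 against 0.511, 1.37 and 1.39 FPKM.

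UBTD1, the relative of UBTD2, gave no such gap. It was at 12.4, 10.9 and 7.14 FPKM in control embryos and 10.4, 11.04 and 7.42 in the GSKA group (log2 fold change -0.06, SE 0.334, limma adjusted p = 0.962). The ratio of UBTD2 to UBTD1 within a library was 0.559, 1.01 and 1.18 in control embryos and 3.01, 3.12 and 3.96 in the GSKA group. UBTD2 was thus below UBTD1 in the first control and near its level in the others. It was well above UBTD1 in each GSKA library.

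**Figure D4:**
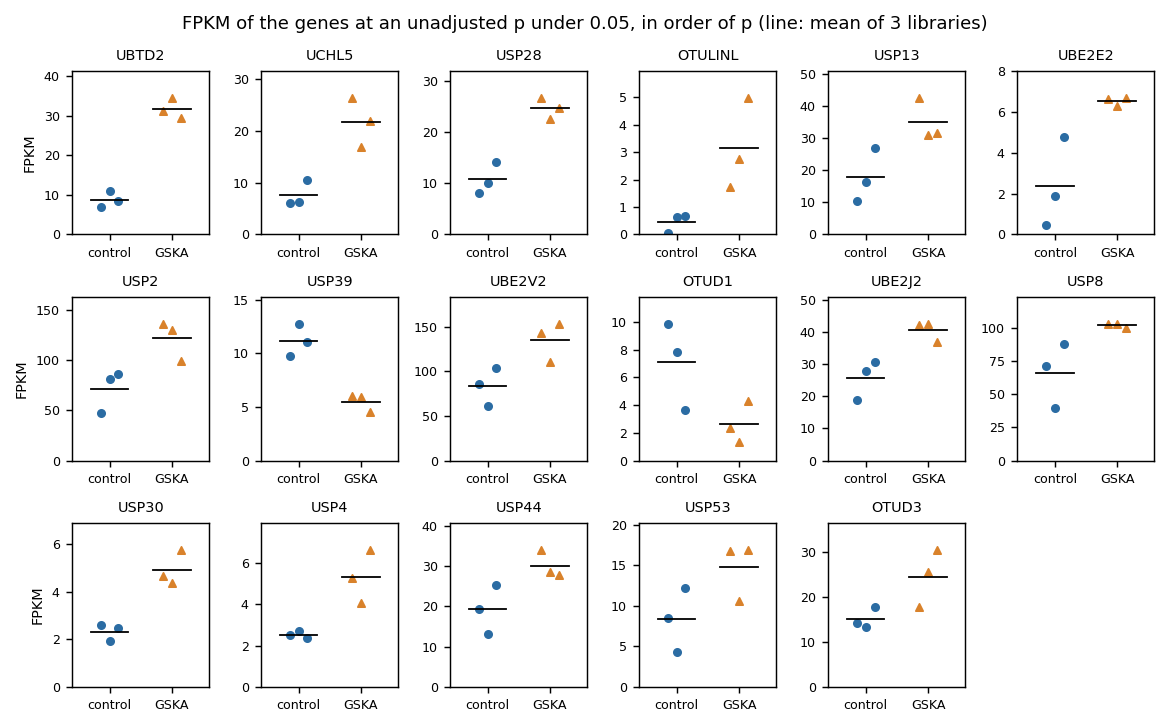
FPKM of the 17 genes at an unadjusted p under 0.05, in order of p, 1 panel each with its own axis from 0. Points are the 3 control libraries (circles) and the 3 GSKA libraries (triangles), and the line is the mean of 3. The groups are apart in all but USP53, OTUD1 and OTUD3, and the GSKA group is lower in USP39 and OTUD1 alone. OTULINL passed the filter on low values only through the GSKA group.

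The USP genes were spread over a lower range than the E2 genes, with none at a mean of 100 FPKM or more and a median of their means of 5.28 FPKM, against 30.3 in the UBE2 family. USP7, a deubiquitinase of MDM2, had the highest mean in the controls, at 122, 66.4 and 75.4 FPKM against 81.1, 66.0 and 87.0 in the GSKA group. USP1, which acts on FANCD2 and PCNA together with WDR48, was at 107, 55.7 and 95.5 against 104, 84.6 and 103 FPKM. Both overlapped between the groups, as did USP3, a deubiquitinase of histone H2A, at 37.0 to 60.4 and 39.2 to 48.5 FPKM.

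USP2 and USP8 were the most abundant USP genes with groups that lay apart. USP2, known for removing ubiquitin from cyclin D1 and MDM2, was at 47.2, 81.3 and 86.5 FPKM in control embryos and 136, 130 and 99.6 in the GSKA group, where it was the highest of the family in mean (log2 fold change 0.79, SE 0.272, unadjusted p = 0.0121, limma adjusted p = 0.233). USP8, which acts on receptors at endosomes, was at 71.2, 39.5 and 87.8 against 103, 103 and 100.4 FPKM. The GSKA libraries were close to one another and lay above a wide control range (log2 fold change 0.69, SE 0.286, unadjusted p = 0.0307, adjusted p = 0.308). Without control replicate 2, the lowest of the controls, the log2 fold change was 0.37. USP50 lies inside USP8 on the opposite strand over 20523 bases and was at 0 in 4 of the 6 libraries, with 0.849 FPKM as its highest value.

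USP28, USP13 and USP39 had the largest log2 fold changes of the tested USP genes in either direction on the log2(FPKM + 1) scale. With a pseudocount of 0.1 USP30, at 1.05, came before USP39, at -1.02. USP28, a partner of TP53BP1 and p53 in the arrest after long mitoses, was at 8.16, 10.1 and 14.3 FPKM in control embryos and 26.8, 22.7 and 24.9 in the GSKA group (log2 fold change 1.15, SE 0.298, unadjusted p = 0.00198, limma adjusted p = 0.126). Its relative USP25 was at 2.66, 2.00 and 1.63 against 5.49, 2.60 and 5.27 FPKM, with 1 GSKA library inside the control range. USP13, linked to autophagy, was at 10.3, 16.3 and 26.8 against 42.5, 30.9 and 31.6 FPKM (log2 fold change 1.02, SE 0.339, unadjusted p = 0.0101, adjusted p = 0.216). In both genes every GSKA library lay above every control, and control replicate 3 was the highest control. USP39, which has lost deubiquitinase activity and serves the spliceosome in assembling the tri-snRNP, lay the other way at 9.79, 12.7 and 11.04 FPKM in control embryos and 6.0, 5.97 and 4.50 in the GSKA group (log2 fold change -0.91, SE 0.321, unadjusted p = 0.0141, adjusted p = 0.244). It was the only tested USP gene with every GSKA library below every control.

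USP44, USP30, USP4 and USP53 were the other USP genes at an unadjusted p under 0.05. USP44, which acts on histone H2B and in the spindle checkpoint, was at 19.4, 13.1 and 25.3 FPKM in control embryos and 34.0, 28.6 and 27.8 in the GSKA group (limma unadjusted p = 0.0453, adjusted p = 0.358). USP30, which opposes mitophagy at the mitochondrial outer membrane, was at 2.59, 1.92 and 2.45 against 4.65, 4.36 and 5.73 FPKM (adjusted p = 0.326). USP4 was at 2.50, 2.72 and 2.38 against 5.29, 4.05 and 6.62 FPKM (adjusted p = 0.339). These 3 were apart, USP30 and USP4 with narrow control ranges. USP53, long classed as inactive, overlapped at 8.42, 4.34 and 12.2 against 16.8, 10.6 and 16.8 FPKM (unadjusted p = 0.0492, adjusted p = 0.370). The relatives of USP4 differed from it: USP15 was at 19.1 to 26.3 and 18.6 to 27.3 FPKM, so that the ratio of USP15 to USP4 was 7.04 to 10.5 in control embryos and 2.81 to 5.46 in the GSKA group, while USP11 was at 3.49 to 5.36 and 3.21 to 4.30 FPKM.

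**Figure D5:**
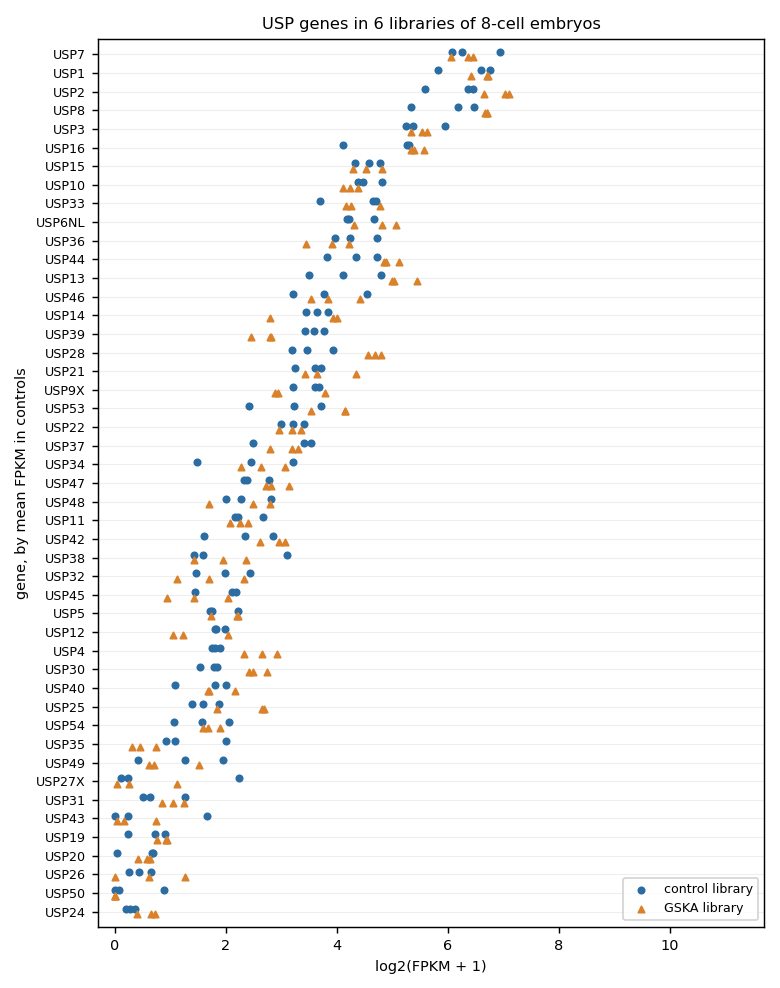
Level of each of the 47 USP genes as log2(FPKM + 1) (x axis) in the 3 control libraries (circles) and the 3 GSKA libraries (triangles), ordered by mean FPKM in the controls. Neighbouring genes overlap along the whole order. All triangles lie right of the circles in USP2, USP4, USP8, USP13, USP16, USP24, USP28, USP30 and USP44. They lie left of them in USP35 and USP39.

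The deubiquitinases were also grouped by role. Of the 7 tested for histones H2A and H2B, 3 had a log2 fold change above 0 and 4 below (median -0.02). USP44 and USP16 were the 2 with groups apart, with every GSKA library above every control, as in 12.9% of all genes tested. USP16, which removes ubiquitin from histone H2A in mitosis, was at 38.3, 16.3 and 37.4 FPKM in control embryos and 39.4, 41.0 and 46.5 in the GSKA group, a gap that is small beside the spread of the controls (log2 fold change 0.54, limma adjusted p = 0.507). The 7 genes of the DNA damage response had a median of -0.04, with USP28 the only one at an unadjusted p under 0.05. The 4 tested genes at endosomes, membranes and mitochondria had a median of 0.37, with 3 above 0. USP8 and USP30 were the 2 at an unadjusted p under 0.05. Of all genes tested 9.40% were higher at that threshold, and differences between roles were not tested. USP9X had the smaller p of the 2 tested genes listed as X-linked or germline USP, at 11.2, 8.23 and 11.9 against 6.44, 6.68 and 12.8 FPKM, with overlap (log2 fold change -0.29, adjusted p = 0.767).

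In the OTU family 1 gene held most of the RNA. OTUD6B, linked in human cells to proteasome assembly, was at 563, 378 and 585 FPKM in control embryos and 510, 434 and 447 in the GSKA group, which was 74.9% to 85.5% and 78.1% to 82.9% of the family sum. OTUB1, which blocks E2 enzymes such as UBE2N and UBE2D and cuts chains through lysine 48, followed at 55.8, 96.4 and 93.4 against 75.0, 74.9 and 72.2 FPKM. In both, the GSKA range lay inside the control range (log2 fold change -0.11 and -0.10). OTUD3 was at 14.1, 13.3 and 17.7 against 17.7, 25.5 and 30.3 FPKM, with GSKA replicate 1 inside the control range (unadjusted p = 0.0493, limma adjusted p = 0.370).

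OTULINL and OTUD1 were at low levels. OTULINL, a relative of OTULIN at the endoplasmic reticulum membrane without catalytic activity, was at 0.0395, 0.643 and 0.678 FPKM in control embryos and 1.74, 2.74 and 4.97 in the GSKA group. It was under 1 FPKM in every control and above it in every GSKA library, and so passed the filter on low values through the GSKA group alone, for which reason no p is given for it. Its log2 fold change of 1.47 depended on the pseudocount, at 2.79 with 0.1 and 0.56 with 5 in place of 1. OTULIN itself, which cuts linear chains, was at 1.31, 0.280 and 1.69 against 1.08, 0.236 and 1.497 FPKM. OTUD1 lay lower, at 9.83, 7.80 and 3.61 FPKM in control embryos and 2.38, 1.33 and 4.27 in the GSKA group, with 1 library of each group overlapping the other (log2 fold change -1.14, SE 0.441, unadjusted p = 0.0231, adjusted p = 0.282).

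The 11 genes that did not reach an FPKM of 1 in 3 libraries were OTUD7A, OTUD7B, UBE2Z, USP19, USP20, USP24, USP26, USP27X, USP35, USP43 and USP50. Their highest single value was 3.71 FPKM, for USP27X in control replicate 1. OTUD7A, OTUD7B and USP24 were higher in every GSKA library than in every control, at 0.401 to 1.02 against 0.0855 to 0.367 FPKM for OTUD7A, and USP35 was lower in every one, at 0.237 to 0.684 against 0.895 to 2.99 FPKM. These genes were not tested. The share of genes with such gaps among all genes under the filter was not computed, so nothing is read from their number.

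The controls varied more than the GSKA libraries in most of the genes. The SD of log2(FPKM + 1) was larger in the controls for 63 of 85 (74.1%), beside 68.1% of all genes tested. By family this share was 84.4% of the UBE2, 64.1% of the USP and 66.7% of the OTU genes. The median SD of the set was 0.41 in control embryos and 0.27 in the GSKA group, and over all genes 0.45 and 0.29. In the OTU genes the median SD was 0.44 in control embryos and 0.53 in the GSKA group.

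The rest of the pathway was read from 8 lists of ubiquitin and ubiquitin-like genes, E1 enzymes, other E2 enzymes, other deubiquitinases, SUMO and NEDD8 proteases, cullin ligase parts, HECT and RBR ligases, and partners of deubiquitinases. Of 146 genes listed, 140 were in the files and 125 were tested. None was called, 11 were higher and 4 lower at an unadjusted p under 0.05 (background 9.40% and 4.03%), and the median log2 fold change was 0.08.

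Among the modifiers themselves, FAU, which encodes a ubiquitin-like protein fused to a ribosomal protein, was lower in every GSKA library at 3697 to 4655 against 5212 to 7664 FPKM (log2 fold change -0.64, limma adjusted p = 0.203). UFM1 was higher, at 289 to 390 against 181 to 281 FPKM (log2 fold change 0.63, adjusted p = 0.265). UFC1, the E2 of UFM1, lay the same way, at 55.2 to 61.7 against 22.0 to 46.9 FPKM (adjusted p = 0.267). The NEDD8 E1 subunits NAE1 and UBA3 were at 28.4 to 37.2 against 13.01 to 23.7 FPKM (adjusted p = 0.202) and at 38.7 to 49.3 against 20.3 to 46.7 (adjusted p = 0.397). TSG101, an E2-like protein of the ESCRT pathway, and ATG3, the E2-like enzyme of autophagy, had log2 fold changes of 0.50 and 0.38.

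Of the deubiquitinases outside the USP, OTU and UCHL families, ATXN3 was at 6.13, 8.26 and 12.3 FPKM in control embryos and 23.4, 18.2 and 20.5 in the GSKA group, apart (log2 fold change 1.18, SE 0.320, limma adjusted p = 0.133). STAMBP, which acts at endosomes as USP8 does, was at 4.38 to 4.64 and 7.71 to 8.80 FPKM (adjusted p = 0.335), and BRCC3 overlapped (adjusted p = 0.405). Of the SUMO and UFM1 proteases SENP5, SENP1 and UFSP2, SENP5 alone was apart, at 9.74 to 14.1 against 5.58 to 9.29 FPKM.

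The ligases held values on both sides. RNF19B was at 94.7, 55.1 and 36.8 FPKM in control embryos and 22.5, 21.3 and 30.2 in the GSKA group (log2 fold change -1.21, SE 0.331, limma adjusted p = 0.133), and HUWE1 at 5.48, 5.13 and 5.85 against 2.46, 2.04 and 1.77 FPKM (log2 fold change -1.07, adjusted p = 0.209), both lower in every GSKA library. NEDD4L was higher, at 4.28 to 7.29 against 2.00 to 3.40 FPKM (adjusted p = 0.291). The cullin adaptors SKP2 and FBXW7 and the cullin regulator GLMN had log2 fold changes of 0.80, 0.67 and 0.82 (adjusted p = 0.240, 0.304 and 0.284), with overlap in GLMN. Of the 24 cullin list genes tested, 5 were higher in every GSKA library, SKP2 and FBXW7 among them, and 3 were lower in every one. Of all genes tested these shares were 12.9% and 6.45%. The 3 lower ones, chosen after their values were seen, were CUL2, CCNF and RBX1. CUL2 was at 3.28 to 6.22 against 6.64 to 8.91 FPKM (log2 fold change -0.77, limma adjusted p = 0.370). Among the partners, PCNA was lower in every GSKA library, at 175 to 194.4 against 194.6 to 314 FPKM, although the nearest values all but met (log2 fold change -0.50, adjusted p = 0.375). MDM4 and WDR48 overlapped between the groups.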

How the data were processed

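The authors deposited FPKM values per gene for 6 libraries. For these the authors used cutadapt 1.9, then HISAT2 2.0.4 and StringTie 1.3.4d, with edgeR also listed, per the submitters' processing notes. Their genome build was not given in the sources used here. A further deposited table holds the authors' own comparison (fold, log2 fold, p and q) and was not used. The authors' edgeR test needs counts and was not run, as the files hold FPKM. It was replaced by limma 3.58.1 in R 4.3.3 with an intensity trend on log2(FPKM + 1), group as the only term, over genes reaching an FPKM of 1 in 3 or more of the 6 libraries, of either group, with Benjamini-Hochberg adjustment. The threshold was an adjusted p under 0.05. Tables were handled in Python 3.11.15, and the test was checked on simulated data. The genes and lists were chosen with earlier results of these data known. Named are genes at an unadjusted p under 0.05, the 8 UBE2, 8 USP and 4 OTU genes of highest mean, all UCHL and UBTD genes, the smallest p of each of 17 role lists, and up to 3 genes of each pathway list. Other genes and all ratios were chosen after their values were seen. Alternatives covered pseudocount, filter, scaling, variance model, replicate number, threshold and each library left out. No values per transcript were tested. Some genes that the rule names are not reported or drawn here.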

Additional observations from a re-analysis of the deposited data

How the results depend on the processing

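Of all genes tested 38 were called, and 15 with a pseudocount of 0.1, 21 with median scaling, 19 with the replicate number as a block, 7 with no intensity trend, 0 with no filter on FPKM (where limma gave 1664 genes at an unadjusted p under 0.05), and 106 at an adjusted p under 0.1 with a fold of at least 2. Leaving out 1 library gave between 4 and 33. Of the ubiquitin genes 1, UBTD2, was called. It was lost with no filter (adjusted p = 0.234), with median scaling (0.0544), with the replicate block (0.0543) and with no intensity trend (0.0798), so that 0 were then called. At an adjusted p under 0.1, 2 were called, UBTD2 and UCHL5. Leaving out 1 library gave 0 or 1, with UBTD2 kept only without control replicate 1 or 2. In all, UBTD2 was called in 12 of 20 alternatives, with a log2 fold change of 1.42 to 1.92 and an adjusted p of 0.0116 to 0.234, and no other named gene was called in any of these. The cause of these losses was not tested, other than that an arm had 2 libraries where 1 was left out. Median scaling and quantile scaling took the median log2 fold change of all genes from 0.09 to about 0. The median of the ubiquitin genes, 0.10, was 0.25 with a filter of 5 FPKM and 0.005 to 0.286 with 1 library left out. That of all genes tested was 0.12 with this filter and 0.04 to 0.14 with 1 library left out. Libraries of the same number did not vary together (correlations of their deviations from the group means of -0.08, 0.14 and -0.12), so the numbers were not taken to pair them. FPKM limits what can be said at low levels, where its step is unknown.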
